A study of Drosophila melanogaster with 37 samples.

Results

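Isoform-rich units of moderate length are transcription units (TUs, the stranded intervals in which the study grouped genes) that hold exactly 1 gene, carry 8 or more annotated transcripts and span under 40000 bp on X, 2L, 2R, 3L, 3R or 4. The rule picked 218 of the 15991 TUs in the dm6 annotation of the series, 1.36% of all units. They held 2235 of the 34736 annotated transcripts (6.43%). The rule used the number of genes, the number of transcript identifiers and the length of a unit. Those properties are given below as a description, and only other properties were tested.

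Transcription by RNA polymerase II (Pol II) was profiled by mNET-seq, which sequences nascent RNA held by immunoprecipitated polymerase, in sexed stage 15 Drosophila melanogaster embryos. Mothers carried a UAS RNAi against mof, the gene of the histone H4 acetyltransferase used in fly dosage compensation, or a control RNAi. In the order female mof RNAi, male mof RNAi, female control and male control, the groups held 4, 3, 4 and 3 samples for total Pol II, 4, 4, 3 and 4 for Pol II phosphorylated at serine 5 of its C-terminal domain, and 2 each for serine 2. Each preparation used 6000 embryos, and the driver of the RNAi is not given in the sources used here. Coverage of these 37 samples was not analysed here, so no level of transcription, no effect of the mof RNAi and no depth can be given, and every value below describes the annotation on which such signal is summed.

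A gene gains several transcripts through alternative promoters, alternative splicing of its exons and alternative polyadenylation sites. In Drosophila, genes of muscle fibres, synapses and ion channels are classic cases: the muscle myosin heavy chain, for example, is made in different versions from a single gene by choice among mutually exclusive exons. Nascent RNA from all transcripts of such a gene falls in the same TU, and a TU has a single annotated start, the outermost of its gene. The annotation lists transcript identifiers without exons or inner starts, so the source of each unit's transcripts was not analysed here.

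Transcript number fell off steeply across the 14478 single-gene units under 40000 bp. Of these, 8572 had 1 transcript (59.2%), 3368 had 2 and 1156 had 3. A further 1164 had 4 to 7, and the 218 isoform-rich units made up 1.51%. Among the 218, the median was 9 transcripts (upper quartile 11, highest 21). The number with 8 transcripts was 48, with 9 it was 63, and 32 units had 13 or more.

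**Figure D1:**
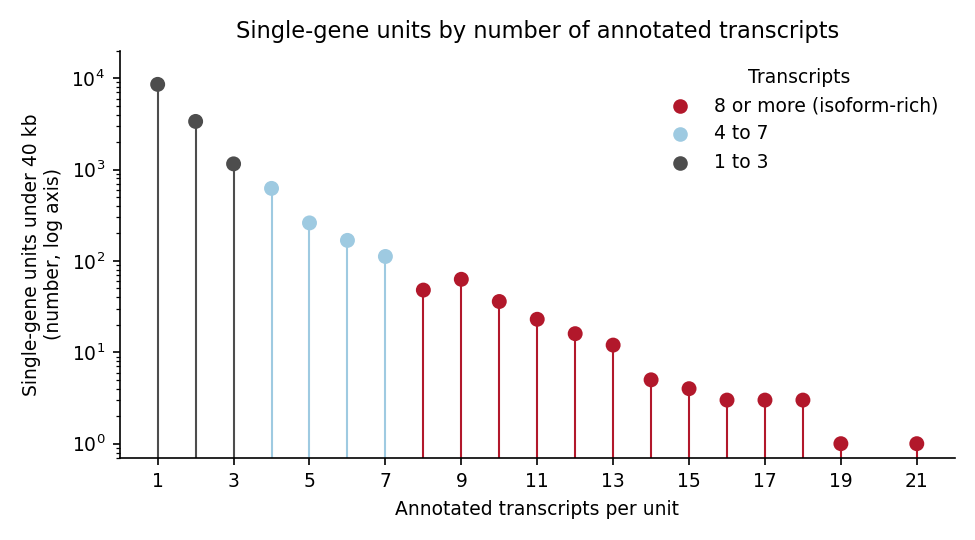
Number of single-gene units under 40 kb (log axis) for each number of annotated transcripts per unit, with units of 8 or more transcripts in red, of 4 to 7 in light blue and of 1 to 3 in grey. Numbers drop to 48 units at 8 transcripts, against 8572 at 1, and a single unit has 21.

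The units with the most transcripts included muscle and neuronal genes. Mhc (FBgn0264695), which encodes the muscle myosin heavy chain, had the most, 21 transcripts in 22201 bp on 2L (16766566 to 16788766, plus strand). RIC-3 (FBgn0050296), a chaperone of nicotinic acetylcholine receptors, followed with 19 transcripts in 7135 bp on 2R. There were 18 for each of the next units: up (FBgn0004169), the troponin T gene, with 9105 bp on the X, Pka-R1 (FBgn0259243), a regulatory subunit of protein kinase A, with 19931 bp on 3L, and ps (FBgn0261552), the splicing regulator pasilla, with 37561 bp on 3R. The tropomyosin gene Tm1, the myofilin gene Mf and CG43897 had 17 each, in 27409, 10886 and 20499 bp.

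The next places held a wider range of functions. mfas, a midline fasciclin, CG2246 and CG11486 had 16 transcripts each. There were 15 for sw, the dynein intermediate chain, for shi, the fly dynamin, for Dscam2, an immunoglobulin-family receptor of neurons, and for Doa, a kinase of splicing factors. Su(var)2-10, a SUMO ligase, slgA, a proline dehydrogenase, wrd, a regulatory subunit of protein phosphatase 2A, CLIP-190, a microtubule-binding protein, and CG10737 had 14 each. These 20 units ranged in length from 5879 bp for Su(var)2-10 to 37561 bp for ps.

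Length varied widely among the 218 units, with a median of 13493.5 bp and quartiles of 8346.25 and 22611.2 bp. Units of 4 to 7 transcripts had a median of 7014 bp and units of 1 to 3 transcripts 1492.5 bp. Within the 218, length and transcript number were weakly related (Spearman's rho 0.21 across units), and over all 14478 units rho was 0.56. Both are descriptions across units picked in part by these measures. The shortest was SkpA, an adaptor of SCF ubiquitin ligases, with 9 transcripts in 1786 bp on the X. Oscillin followed with 8 transcripts in 2529 bp, and the ferritin heavy chain gene Fer1HCH with 9 in 2606 bp.

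Density of annotation had a median of 0.75 transcripts per kb, with 0.236 in RhoGAP100F as the lowest and 5.04 in SkpA as the highest. Spn42Da, a serine protease inhibitor gene with 11 transcripts in 3022 bp on 2R, reached 3.64 per kb and Fer1HCH 3.45. Units of 1 to 3 transcripts had a median of 0.882 per kb, at a shorter median length.

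**Figure D2:**
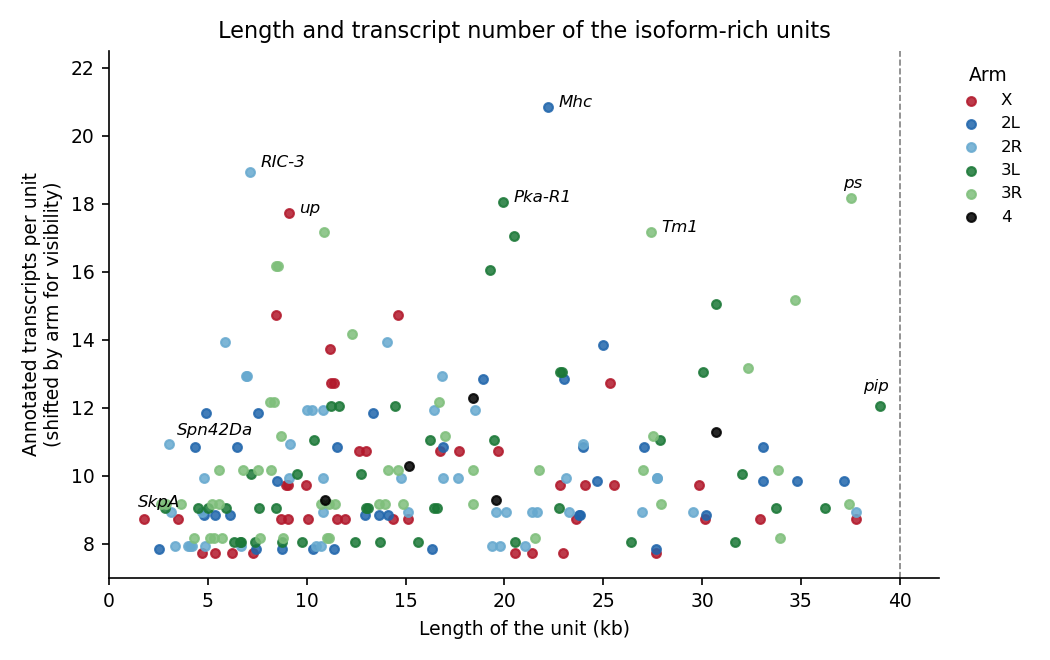
Each point is 1 of the 218 isoform-rich units, with its length in kb on the x axis and its number of annotated transcripts on the y axis (shifted slightly by arm), coloured by chromosome arm. The dashed line marks the 40 kb limit. Mhc stands highest at 21 transcripts, and units of 8 to 12 transcripts occur at nearly every length from SkpA to pip.

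At the length limit, the longest units inside were pip, a sulfotransferase gene of dorsoventral patterning, at 38987 bp with 12 transcripts, brp, the active zone protein Bruchpilot, at 37801 bp with 9, and Nrg, the adhesion molecule neuroglian, at 37798 bp with 9. Just outside were Cda5 at 40003 bp with 8, dlg1 at 40112 bp with 21 and tutl at 40634 bp with 10. At the transcript limit, the 48 units with 8 transcripts had a median length of 9273.5 bp and 14 divergent starts (29.2%). The 112 units with 7 transcripts had a median of 10510 bp and 43 divergent starts (38.4%).

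Most transcript-rich units lay outside the rule. On the 6 arms 513 TUs had 8 or more transcripts: 218 were isoform-rich units as defined, 58 were single genes of 40000 bp or longer, and 237 merged several genes. Examples outside the rule, named after their values were seen, are Dscam1 (75 transcripts, 63976 bp), the merged unit of mod(mdg4) with its pre-mod(mdg4) entries (61 transcripts) and that of Sxl with mir-4956 (26 transcripts).

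The RefSeq gene table of the same assembly gave nearly the same picture. Whether its entries were made independently of this annotation is not given in the sources used here, so the match is no independent check. Of the 218 units, 217 were matched by symbol or synonym, and for 216 of those both ends were identical to those of the RefSeq entry. RefSeq listed as many transcripts in 198, more in 18 and fewer in 1. The largest excess was in CG42672 (10 here, 16 in RefSeq), followed by Mbs (13 here, 18 in RefSeq) and brp (9 here, 14 in RefSeq), and the shortfall was in pip (12 here, 11 in RefSeq). No matched unit had under 8 in RefSeq. All but yar, a non-coding RNA gene of the X with 8 transcripts in 4674 bp, were protein-coding, and Ald was the unmatched unit. yar and Ald are named here after their values were seen.

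Gene lists showed which functions contributed. The lists were chosen with earlier results known. Of the single-gene units under 40000 bp in each, isoform-rich units made up 8 of 22 for synaptic vesicle and release genes (36.4%). They made up 6 of 23 for RNA-binding proteins and splicing regulators (26.1%) and 6 of 24 for muscle contractile genes (25%). For the list of kinases and their regulatory subunits the share was 12 of 51 (23.5%). The shares were 5 of 28 for ion channels (17.9%), 7 of 42 for cytoskeleton and adhesion genes (16.7%), 10 of 62 for chromatin and Pol II regulators (16.1%), 4 of 45 for metabolic enzymes (8.89%) and 2 of 27 for BTB and zinc finger regulators (7.41%). Over all single-gene units under 40000 bp the share was 1.51%, and over the 2524 of them with at least 5000 bp it was 7.73%. Merged and longer units of the lists are not in these shares. With them counted, units of 8 or more transcripts were 12 of 53 in the BTB and zinc finger list. They were 23 of 45 in the RNA-binding list and 18 of 50 in the ion channel list. For synaptic and muscle genes they were 13 of 33 and 13 of 35. For kinases, cytoskeleton, chromatin and metabolic enzymes they were 19 of 70, 24 of 68, 17 of 77 and 7 of 50. Over all TUs on the 6 arms, 513 of 15848 had 8 or more transcripts. Merged units pool the transcripts of several genes, so these counts are not comparable with the shares above. The lists hold well-studied genes and were not tested against other genes. Median lengths of the lists just given ran from 3368 bp for muscle to 11425 bp for ion channels, against 1675.5 bp over all. In the muscle list 10 of the 24 units had at least 5000 bp.

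**Figure D3:**
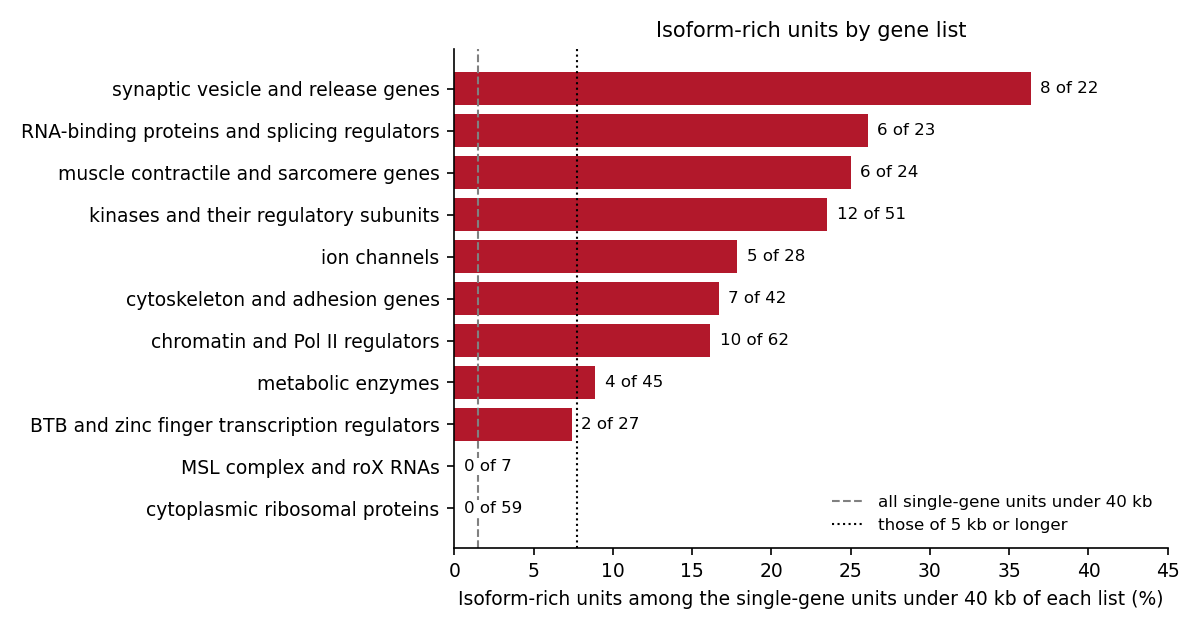
Share of isoform-rich units, in percent, among the single-gene units under 40 kb of each gene list, with the numbers beside each bar. The dashed line is the share over all such units (1.51%) and the dotted line that over units of at least 5 kb (7.73%). Synaptic genes stand highest at 36.4%, and the ribosomal protein and MSL lists at 0.

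Among the synaptic members, Syt1, the calcium sensor synaptotagmin, had 8 transcripts in 27653 bp on 2L, nSyb, the vesicle SNARE, 8 in 7405 bp on 3L, Sap47 10 in 27025 bp on 3R and brp 9 in 37801 bp on 2R. In endocytosis, shi had 15 and lap, the fly AP180, 9 in 13948 bp. Rab3-GEF with 10 and RhoGAP100F with 8 completed the 8. Other genes of the list stayed below the minimum, such as Rop and comt with 2 transcripts each, Rab3 with 1, Syn with 4 and Csp with 6. Ion channel members were Ca-alpha1D, the L-type calcium channel (10 in 24710 bp), Ih, the hyperpolarisation-activated channel (11 in 23966 bp), the mechanosensitive channel Piezo (11 in 27065 bp), and the channel-associated proteins Hk (9 in 30139 bp) and Slob (11 in 33074 bp).

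Thin and thick filament genes of muscle were both present. Besides Mhc, Mf, Tm1 and up, wupA, the troponin I gene, had 13 transcripts in 11355 bp on the X, and Zasp66, a Z-disc protein gene, had 12 in 14443 bp on 3L. RNA-binding members included 2 of the ELAV family, fne (9 in 32941 bp on the X) and Rbp9 (9 in 13673 bp on 2L). Fmr1, the fly fragile X protein, had 11 in 8702 bp on 3R, and the splicing factors B52 and Hrb27C had 10 and 8.

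Members from the list of kinases and their regulatory subunits were led by Pka-R1 (18) and Doa (15). Then came gish (13), Pvr, the PDGF and VEGF receptor (13), and Mbs, a subunit of myosin phosphatase and not of a kinase (13). The others were CaMKII (12), aPKC (12), CkIIbeta (10), Src64B (9), Tao (9), Pak (9) and msn (8). Chromatin and transcription members included the histone methyltransferase gene Set1 (9 in 7587 bp), the remodelling factor E(bx) (9 in 12987 bp), the deacetylase HDAC4 (8 in 22946 bp) and the corepressor Sin3A (10 in 17678 bp). The metabolic members were Ald, the aldolase gene (10), Idh (9), the calcium pump SERCA (9) and the sodium pump Atpalpha (11). From the regulator list with BTB and zinc finger proteins came ttk (8 in 21526 bp) and lolal (8 in 4098 bp). Cytoskeletal members were jar (9), cher (10), zip (9), Moe (13), Nrg (9), l(2)gl (11) and ens (12).

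No gene in the list of the MSL complex, which acts in dosage compensation, and its roX RNAs was isoform-rich, 0 of 7 single-gene units. mof and msl-3 had 1 transcript each, msl-1, mle and Clamp 2 each, roX1 5 and roX2 6, and the unit of msl-2 with mir-4971 had 3. Cytoplasmic ribosomal proteins likewise gave 0 of 59, with a median length of 1119 bp and none of 5000 bp or longer. Of all 92 ribosomal protein units, 33 were merged and so fell outside the rule, and 6 had 8 or more transcripts. Over all single-gene units under 40000 bp the isoform-rich share was 1.51%, so a count of 0 does not set lists this small apart.

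By arm, there were 40 on the X (1.84% of its 2175 single-gene units under 40000 bp, 95% Wilson interval 1.35 to 2.49%), 35 on 2L (1.20%), 46 on 2R (1.55%), 44 on 3L (1.54%), 48 on 3R (1.38%) and 5 on chromosome 4 (4.85%, 2.09 to 10.9%). The median single-gene unit under 40000 bp measured 6851 bp on chromosome 4 and 2002 bp on the X. Among units of at least 5000 bp, the shares were 7.99% on the X, 6.98% on 2L, 7.64% on 2R, 8.40% on 3L, 7.53% on 3R and 8.20% on chromosome 4. The leading units of the X were up, shi and sw, and those of chromosome 4 were CaMKII (12 transcripts), PMCA, a plasma membrane calcium pump (11), and CG1674 (10).

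For the tests, the 218 units were set against the 13096 single-gene units of 1 to 3 transcripts on the same arms. Each model held length in 5 classes (under 2500, 2500 to 5000, 5000 to 10000, 10000 to 20000 and 20000 to 40000 bp), and shares for the comparison units are given weighted to the length classes of the isoform-rich units. Of the 218, 78 lay in the class of 10000 to 20000 bp and 66 in the longest. Errors were clustered on 1 Mb blocks, and p-values are two-sided and adjusted over 8 features. The n beside a p counts isoform-rich units. Units are a census of a genome and no biological replicates. The share on the X did not pass: 40 of the 213 isoform-rich units on the 5 large arms (18.8%) against 17.3% at the same lengths (odds ratio 1.09, 95% confidence interval 0.737 to 1.62, logistic regression, n = 213, adjusted p = 0.730). The share of protein-coding units, 216 of 217 against 97.1%, did not pass either (odds ratio 6.53, 0.958 to 44.6, n = 217, adjusted p = 0.0886).

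Isoform-rich units were less often isolated than like-length units with few transcripts. Isolation here means that no other unit lies within 500 bp of either end. It was found for 32 of 218 isoform-rich units (14.7%) against 32.4% at the same lengths (odds ratio 0.353, 95% confidence interval 0.223 to 0.558, logistic regression, n = 218, adjusted p = 3.30e-05). In the class of 20000 to 40000 bp the shares were 12 of 66 (18.2%) and 80 of 167 (47.9%), and at 10000 to 20000 bp 11 of 78 (14.1%) and 142 of 455 (31.2%). Against units of 4 to 7 transcripts the odds ratio was 0.534 (n = 218, adjusted p = 0.0223). Right at the transcript limit the order was the other way. Isolated units were 17 of 112 (15.2%) at 7 transcripts and 10 of 48 (20.8%) at 8, not adjusted for length or tested. The isolated units with the most transcripts were Tm1, CG2246, sw and CG8177, with 17, 16, 15 and 13.

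Divergent starts, head-to-head with an opposite-strand unit at most 500 bp upstream, were more frequent at like length. They occurred in 53 isoform-rich units (24.3%) against 16.7% at the same lengths (odds ratio 1.58, 95% confidence interval 1.09 to 2.27, logistic regression, n = 218, adjusted p = 0.0298). Shares were 28.2% (22 of 78) against 14.3% (65 of 455) at 10000 to 20000 bp and 15.2% (10 of 66) against 8.38% (14 of 167) above. At 2500 to 5000 bp the order was the other way, 4 of 22 (18.2%) against 701 of 2181 (32.1%). Without length adjustment the comparison share was also 24.3%, and the call was lost (odds ratio 1.00, n = 218, adjusted p = 0.998). It was also lost without 2L, 2R, 3L or 3R (odds ratios 1.57, 1.49, 1.54 and 1.62, n = 183, 172, 174 and 170, adjusted p from 0.0528 to 0.0814), with log2 length and its square in place of classes (1.31, n = 218, adjusted p = 0.192) and against units of 4 to 7 transcripts (1.14, adjusted p = 0.674). Among units of at least 5000 bp with log2 length and its square in the model, chosen after the data were seen, the odds ratio was 1.93 (n = 195, adjusted p = 0.00225).

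**Figure D4:**
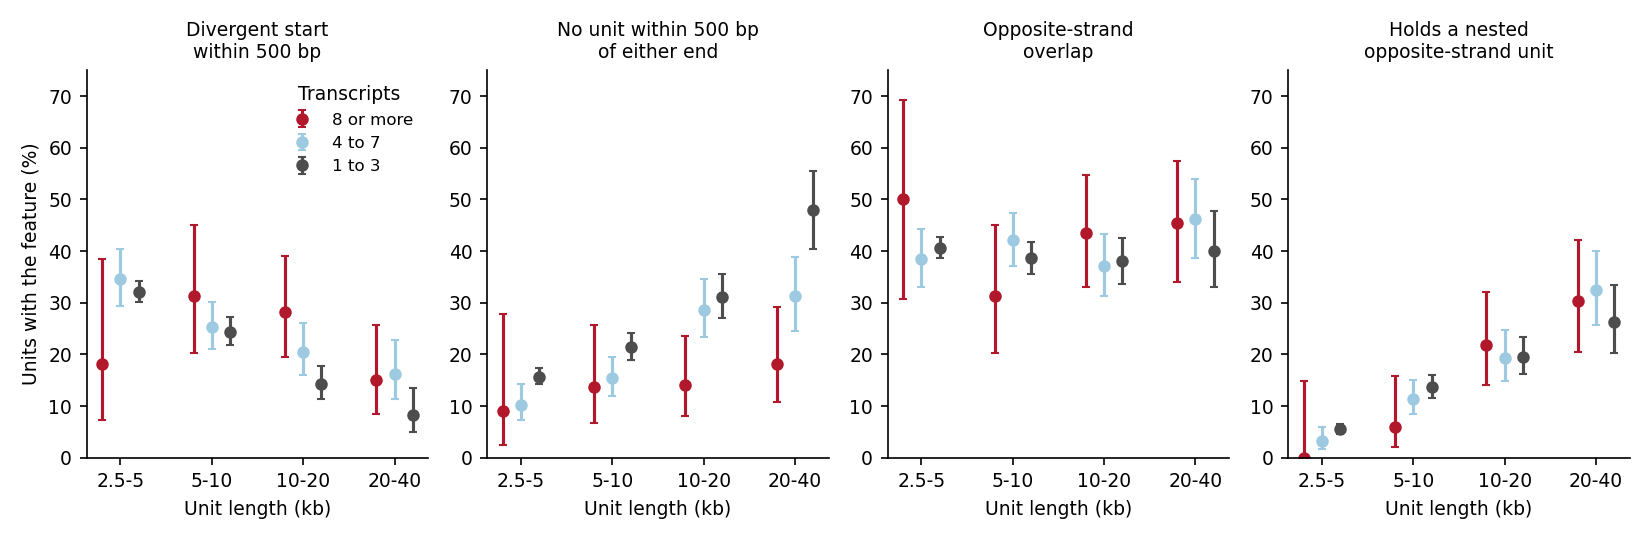
Percent of units with each neighbour feature (y axis) by length of the unit in kb (x axis), for units of 8 or more transcripts (red), 4 to 7 (light blue) and 1 to 3 (grey); bars are 95% Wilson intervals, which cover counting error only. The only unit of 8 or more transcripts under 2.5 kb is not drawn. Above 10 kb isoform-rich units are isolated less often (18.2% against 47.9% at 20 to 40 kb), while overlaps and nested units lie close together.

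The median partner of these divergent starts measured 2723 bp and had 1 transcript, against 1675.5 bp and 1 transcript over all 14478 single-gene units under 40000 bp. Of the 53 partners 43 had 1 to 3 transcripts, as had 13096 of the 14478. None was itself an isoform-rich unit, a class that makes up 1.51% of the single-gene units under 40000 bp. Of the 53 partners, 7 merged several genes and so fell outside the rule. On the 6 arms, 14709 of 15848 TUs were single-gene. The only partner with 8 or more transcripts was a merged unit with 11. Starts lay a median of 274 bp apart (quartiles 91 and 364 bp), and 16 pairs were within 100 bp. The closest were Rcd1, a subunit of the MOF-containing NSL complex, 30 bp from pea, gish 37 bp from Mat89Ba and Pka-R1 43 bp from CG3618. RIC-3 faced CG3295 at 338 bp, CG11486 faced CG32486 at 294 bp, and Doa faced the merged unit of CG33203 and CG14523 at 364 bp.

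Spacing before the start was narrower around isoform-rich units. The median distance to the nearest unit upstream on either strand was 373 bp against 504.5 bp at 5000 to 10000 bp of length, 441.5 bp against 907 bp at 10000 to 20000 bp, and 686.5 bp against 1672 bp at 20000 to 40000 bp. On the log2 scale (distance plus 1 bp) the mean was 8.44 against 9.31 at the same lengths, a difference of -0.86 (95% confidence interval -1.40 to -0.31, linear model, n = 218, adjusted p = 0.00522). The call was lost without 2R (-0.65, n = 172, adjusted p = 0.0886) and against units of 4 to 7 transcripts (-0.13, adjusted p = 0.730), and without length in the model the difference turned to 0.74. Spacing after the end, tested after the data were seen, was also narrower at the same lengths (log2 difference -1.03, -1.68 to -0.38, linear model, n = 218, unadjusted p = 0.00197). The medians were 172 bp against 171.5 bp at 5000 to 10000 bp, 187 bp against 318 bp at 10000 to 20000 bp and 184 bp against 864 bp at 20000 to 40000 bp.

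**Figure D5:**
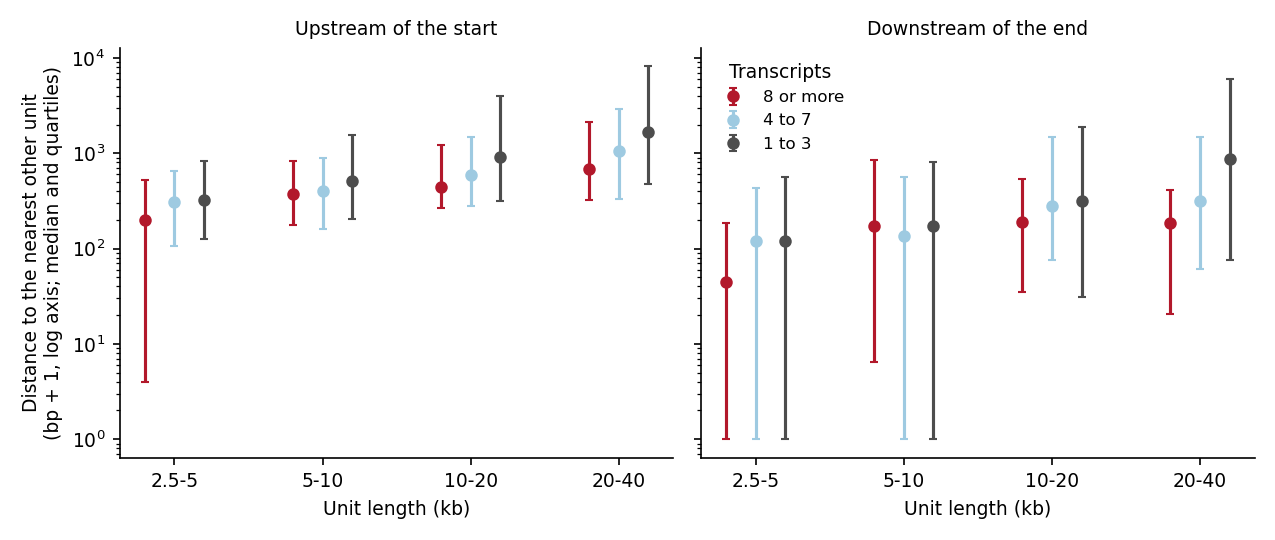
Distance in bp plus 1 (log axis) from the start to the nearest unit upstream (left) and from the end to the nearest unit downstream (right), on either strand, by length of the unit in kb. Points are medians and bars are quartiles, for units of 8 or more transcripts (red), 4 to 7 (light blue) and 1 to 3 (grey). At 20 to 40 kb the medians of isoform-rich units are 686.5 bp upstream and 184 bp downstream, against 1672 and 864 bp for units of 1 to 3 transcripts.

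Dscam2 and Mhc departed from this closeness upstream, with 32785 and 6011 bp, while Mhc ended 7 bp from its next neighbour. up and wupA had 1780 and 3623 bp upstream and 249 and 174 bp downstream. Ih, ps, CtBP and Su(var)2-10 were tightly set at their ends, with 7, 16, 7 and 124 bp downstream. These units are examples chosen for naming by transcript number or by list, except CtBP and the choice among them, made after their values were seen.

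Overlap with an opposite-strand unit did not separate the groups. It was found for 91 isoform-rich units (41.7%) against 39.1% at the same lengths (odds ratio 1.10, 95% confidence interval 0.825 to 1.48, logistic regression, n = 218, adjusted p = 0.674). Most overlaps were small: the median covered 775 bp, or 5.12% of the isoform-rich unit, and 40 covered under 500 bp. A single unit was the partner in 77 cases, a pair in 9 and 3 or more in 5. The overlap covered the end alone in 38, the start alone in 14, both ends in 8 and neither in 31. wrd overlapped cdm by 775 bp at its end, CLIP-190 overlapped Rpb11, a Pol II subunit gene, by 1 bp, and slgA had its start covered by 416 bp of CR45611.

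Nested opposite-strand units did not separate the groups either. In 40 isoform-rich units (18.3%) at least 1 whole unit lay inside, against 18.7% at the same lengths (odds ratio 0.940, 95% confidence interval 0.661 to 1.34, logistic regression, n = 218, adjusted p = 0.730). Without length in the model the odds ratio was 5.88. The 49 nested units had a median of 1127 bp, 28 of them were protein-coding and 20 had a CR symbol. Pka-R1 held Mst77F, a sperm chromatin gene, CG43897 held Ilp5, an insulin-like peptide gene, Tm1 held CG45218 and CG2246 held CG31019.

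Conversely, 6 isoform-rich units (2.75%) lay wholly inside an opposite-strand unit, against 3.01% of units of 4 to 7 transcripts and 12.9% of units of 1 to 3, not adjusted for length or tested. Of the 6, 4 were among the 22 isoform-rich units of 2500 to 5000 bp, a class with 7.06% for units of 1 to 3 transcripts. Mf, with 17 transcripts in 10886 bp, sat inside the unit of Gyc88E, a guanylyl cyclase gene, and Spn42Da inside that of CR44169. yar lay inside the merged unit of CG32816, CR44753, Pgcl and Cyp4g1. The ferritin pair also shared sequence, with the start of Fer1HCH inside the unit of Fer2LCH, the ferritin light chain gene, on the opposite strand.

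Symbols that consist of an annotation number (CG or CR and digits) were less common among isoform-rich units, 43 of 218 (19.7%) against 36.3% at the same lengths (odds ratio 0.421, 95% confidence interval 0.293 to 0.604, logistic regression, n = 218, adjusted p = 2.20e-05). Such symbols mark genes without a name of their own in this annotation. Restricted to protein-coding units the shares were 19.9% and 34.5%. With log2 length and its square over the whole range in place of classes the call was lost (odds ratio 0.754, n = 218, adjusted p = 0.353).

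Within the 218, neighbour features showed no ordering by transcript number. Divergent starts made up 29.2% at 8 transcripts (48 units), 20.6% at 9 (63 units), 22.7% at 10 to 12 (75 units) and 28.1% at 13 or more (32 units), and isolated units 20.8%, 7.94%, 16% and 15.6%. These shares were not tested. Over all 14478 single-gene units under 40000 bp, each doubling of transcript number went with a divergent odds ratio of 1.36 (95% confidence interval 1.27 to 1.45) and an isolated odds ratio of 0.735 (0.691 to 0.783) at like length, in a fit chosen after the data were seen. In that fit the odds of lying on the X were 1.14 per doubling (1.05 to 1.24, n = 14478, unadjusted p = 0.00235).

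The contrasts between isoform-rich units and units of 1 to 3 transcripts did not differ between the X and the autosomes beyond their error. On the X (40 units) the odds ratio was 1.90 for divergent starts and 0.276 for isolation, against 1.55 and 0.385 on the 4 large autosome arms (173 units). The log2 upstream difference was -1.71 on the X and -0.74 on the autosomes. The ratio of odds ratios was 1.23 (95% confidence interval 0.552 to 2.73) for divergent starts and 0.717 (0.198 to 2.59) for isolation, wide intervals that hold ratios on both sides of 1. Interaction terms for 4 features, chosen after the data were seen, gave adjusted p from 0.598 to 0.616.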

How the data were processed

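The authors deposited transcription units as start and end positions. Per the file headers, rtracklayer 1.48.0 wrote them, in the GFF format of version 2. Per the submitters' processing notes, the build is dm6. How genes were merged is not given in the sources used here. Positions are 1-based. Units and lists were chosen with earlier results of these data known. From the positions, neighbours on both strands were computed for all 15991 units, and isoform-rich units were compared with single-gene units of 1 to 3 transcripts by logistic regression (linear for log2 distances) with length class as a factor, standard errors clustered on 1 Mb blocks and Benjamini-Hochberg adjustment over 8 features. Gene classes came from RefSeq. Planned features that need promoter or protein sequences, 7 in number, were not run. Named genes were those with the most transcripts in all, per arm, per kb and per neighbour feature, the shortest and longest, the closest head-to-head pairs and the first 4 members of each list; further members of the lists were named after their values were seen. Models were tested on simulated data in which units varied independently of each other, so the clustering of errors on blocks was not checked. Python 3.11.15, statsmodels 0.14.6, pandas 2.3.3 and scipy 1.17.1 were used.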

Additional observations from a re-analysis of the deposited data

How the results depend on the processing

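No paired analysis was possible because no value per sample was analysed here and the results come from units of an annotation. Over 8 features, 114 alternative fits were run: 96 kept direction and side of the threshold of 0.05, 10 lost a call, 1 gained a call and 7 reversed. Isolation kept its call in each of its 16 alternatives (odds ratios from 0.181 at 1000 bp to 0.627 without length adjustment). Divergent starts lost the call with log2 length and its square in place of classes (1.31), with no length adjustment (1.00), against units of 4 to 7 transcripts (1.14) and without 2L (1.57), 2R (1.49), 3L (1.54) or 3R (1.62). The upstream distance lost it against 4 to 7 transcripts (-0.13) and without 2R (-0.65), and reversed without length adjustment (0.74). Number-only symbols lost it with log2 length and its square (0.754). Without length adjustment, nested units gave 5.88, a reversal, and protein-coding share 57.5, a gained call. Other reversals, none of them called, were overlap of at least 50% of the shorter unit (0.880), nested units with 10 or more transcripts as the minimum (1.03), the share on the X with log2 length and its square (0.996) and against 4 to 7 transcripts (0.826), and protein-coding share against 4 to 7 transcripts (0.403). Values are odds ratios, or log2 differences for distance, isoform-rich over or minus comparison, and the cause of these changes was not tested. Each protein-coding fit with all isoform-rich units coding (10 or more transcripts, without X, at least 5000 bp) could not be fitted. Alternatives with a minimum length were added after the data were seen.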

Other observations

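Identifier numbers differed between the groups. Transcript identifiers carry a running number, and whether it follows the time of annotation is not stated in the file. Numbers of 300000 and above made up 57.5% of the 2235 transcripts in isoform-rich units, 52.8% in units of 4 to 7 transcripts and 43.1% in units of 1 to 3. In 33 of the 218 isoform-rich units all transcripts had such numbers, among them CG43897 with 17, and in 5 none had. All transcripts had them in 122 of the 1164 units of 4 to 7 transcripts. In units of 1 to 3 it was 3551 of 13096, a larger share than in isoform-rich units. None had them in 90 units of 4 to 7 and 6343 units of 1 to 3. With numbers under 100000 alone, 23 of the 218 would still reach 8 transcripts, led by mfas with 15, sw with 13 and Mhc and CG11486 with 12 each. The transcript counts entered the rule, so these values carry no test.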
